A study of Mus musculus with 12 samples.

Results

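The 10 genes described here encode plasma apolipoproteins (Apoa1, Apoa2, Apoa4, Apob, Apoc1, Apoe, Apof, Apoh and Apom) and Mttp, the microsomal protein that loads lipid onto apolipoprotein B. They were chosen by gene symbol from 57180 annotated genes, and all 10 passed the filter on low counts that left 19355 genes for testing. Expression was measured by RNA-seq of ribosomal RNA-depleted total RNA from the livers of 12 mice, which formed 4 groups of 3: females and males labelled Het (Het_F and Het_M) and females and males labelled KO (KO_F and KO_M). All 12 mice lacked Csa (Ercc8), the transcription-coupled repair gene whose loss causes a form of Cockayne syndrome, and all had been injected as newborns into the cerebral ventricles with AAV9-CSA, a viral vector that carries human CSA under a ubiquitous promoter. The labels and the methods write KO as Csa-/-;Xpa+/+ and Het as Csa-/-;Xpa+/-, whereas the study's account of the experiment describes the affected animals as Csa-/- Xpa-/- mice at their humane endpoint, set against treated littermates of the same age without disease signs. By that account the KO mice were at endpoint and the Het mice were not, so genotype and the endpoint state cannot be told apart. Ages of the single mice were not given in the sources used here.

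Xpa, the damage-verification gene that the genotype names, was lower in every KO liver than in every Het liver. It stood at 1.24 ± 0.296 CPM (counts scaled to library size; SD, n = 6) in KO and 4.72 ± 1.39 CPM in Het. The log2 fold change of KO over Het was -1.84 ± 0.162 (SE; adjusted p = 3.73e-05, edgeR quasi-likelihood test with Benjamini-Hochberg adjustment over all tested genes). These levels go with the name KO and against the genotype Xpa+/+ written for it, and the groups are called KO and Het below as labelled. Ercc8 counts were not at 0 in any liver and were higher in KO, at 14.7 to 34.3 CPM against 5.12 to 8.76 CPM in Het, while reads of the human transgene and of mouse Ercc8 were not separated in the table.

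Apolipoproteins are the protein coats of lipoproteins, the particles that carry triglyceride and cholesterol in blood. Hepatocytes build very low density lipoprotein (VLDL) by wrapping lipid in apolipoprotein B inside the endoplasmic reticulum, a step that needs the lipid transfer protein encoded by Mttp. High density lipoprotein (HDL) is built around apolipoproteins A1 and A2, and exchangeable proteins such as apolipoproteins E, C1 and A4 move between particles and steer their uptake and lipolysis. The comparison of KO with Het livers asks how the mRNAs of these coat and assembly proteins stand at endpoint, and the test of genotype by sex asks whether that differs between females and males.

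Some members lie close together in the genome (GRCm39). Apoc1 (chr7:19422540-19427328, minus strand) lies 2705 bases downstream of Apoe (chr7:19430034-19434947, minus strand). Apoa4 (chr9:46151994-46154757, plus strand) lies 9781 bases downstream of Apoa1 (chr9:46139878-46142212, plus strand), with Apoc3 between them. Apob is at chr12:8027648-8066835 and Apoa2 at chr1:171049125-171053948, both on the plus strand. The 250 bases just before the canonical start of Apoa1 and Apoa4, which lie in the same cluster and gave different results below, and of Apob, the structural protein of VLDL, are printed here 5′ to 3′ in the direction of transcription, with capitals where a searched motif was found.
Apoa1, chr9:46139628-46139877: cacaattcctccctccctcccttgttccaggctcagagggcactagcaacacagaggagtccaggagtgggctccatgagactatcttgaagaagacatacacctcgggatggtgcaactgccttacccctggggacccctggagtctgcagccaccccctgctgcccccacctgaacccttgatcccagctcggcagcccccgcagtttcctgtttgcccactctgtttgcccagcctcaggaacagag
Apoa4, chr9:46151744-46151993: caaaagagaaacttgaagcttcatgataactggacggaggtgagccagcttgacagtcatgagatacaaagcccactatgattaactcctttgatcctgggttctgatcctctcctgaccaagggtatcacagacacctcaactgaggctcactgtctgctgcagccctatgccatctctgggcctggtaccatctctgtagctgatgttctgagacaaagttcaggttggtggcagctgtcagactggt
Apob, chr12:8027398-8027647: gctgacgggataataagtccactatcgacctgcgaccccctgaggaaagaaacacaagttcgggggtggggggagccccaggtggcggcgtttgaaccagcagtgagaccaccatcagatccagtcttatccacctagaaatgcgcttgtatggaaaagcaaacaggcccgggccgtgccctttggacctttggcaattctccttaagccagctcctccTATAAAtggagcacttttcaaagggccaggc
In the Apob window the capitals mark a TATA box (TATAAA) on the forward strand, 31 bases before the start. The Apoa1 and Apoa4 windows held none of the 4 motifs searched on both strands, which were this, CAAAGTCCA (HNF4A), AGGTCA (a nuclear receptor half-site) and TGACGT (the core of a cyclic AMP response element). None of the 4 motifs contains another. TATAAA was found in 11.9% of the 21770 windows of the same length before the canonical starts of protein-coding genes. Of the 10 members, 4 held any of the motifs. AGGTCA was in the windows of Apoh and Mttp, against 13.1% of all windows, TATAAA was also in that of Apoa2, and CAAAGTCCA and TGACGT, in 0.37% and 6.49% of all windows, were in none. These matches describe letters only.

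The libraries held 30044781 to 43634046 counts each, and the smallest member count in any liver was 1421 (Apoa4 in Het_M_119), so counting error was small beside the spread between mice. Members together took 3.54% to 4.10% of all counts in Het and 2.85% to 4.03% in KO. KO_F_108 stood apart, with the lowest CPM of all 12 livers for 8 of the 10 genes, the exceptions being Apoa4 and Apoh. Changes over both sexes of Apoa2, Apoc1, Apoa4, Apof and Apom are given with and without it. So are changes in females of Apoa1, Apoa2, Apoc1, Apof and Apom. Fewer cells of a type and less RNA per cell cannot be told apart in bulk tissue. The p-values cover the spread between these mice. The study calls the Het animals littermates, but the labels give no litters, and the fit does not account for them.

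In KO livers, mRNA of Apoa2 and Apoc1 fell and that of Apoa4 rose, while the other 7 members, among them Apob, Apoa1 and Apoe, did not pass the test. With both sexes together, 1 of 10 was called higher, where 11.9% of all tested genes were, and 2 of 10 were called lower, where 10.7% were, so neither share of so few genes stands clear of the background. The median log2 fold change of the 10 genes was -0.20, beside 0.0075 over all tested genes. An unadjusted p under 0.05 was reached by 4 of the 10. The plot of CPM by group shows each liver for all 10 genes.

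**Figure D1:**
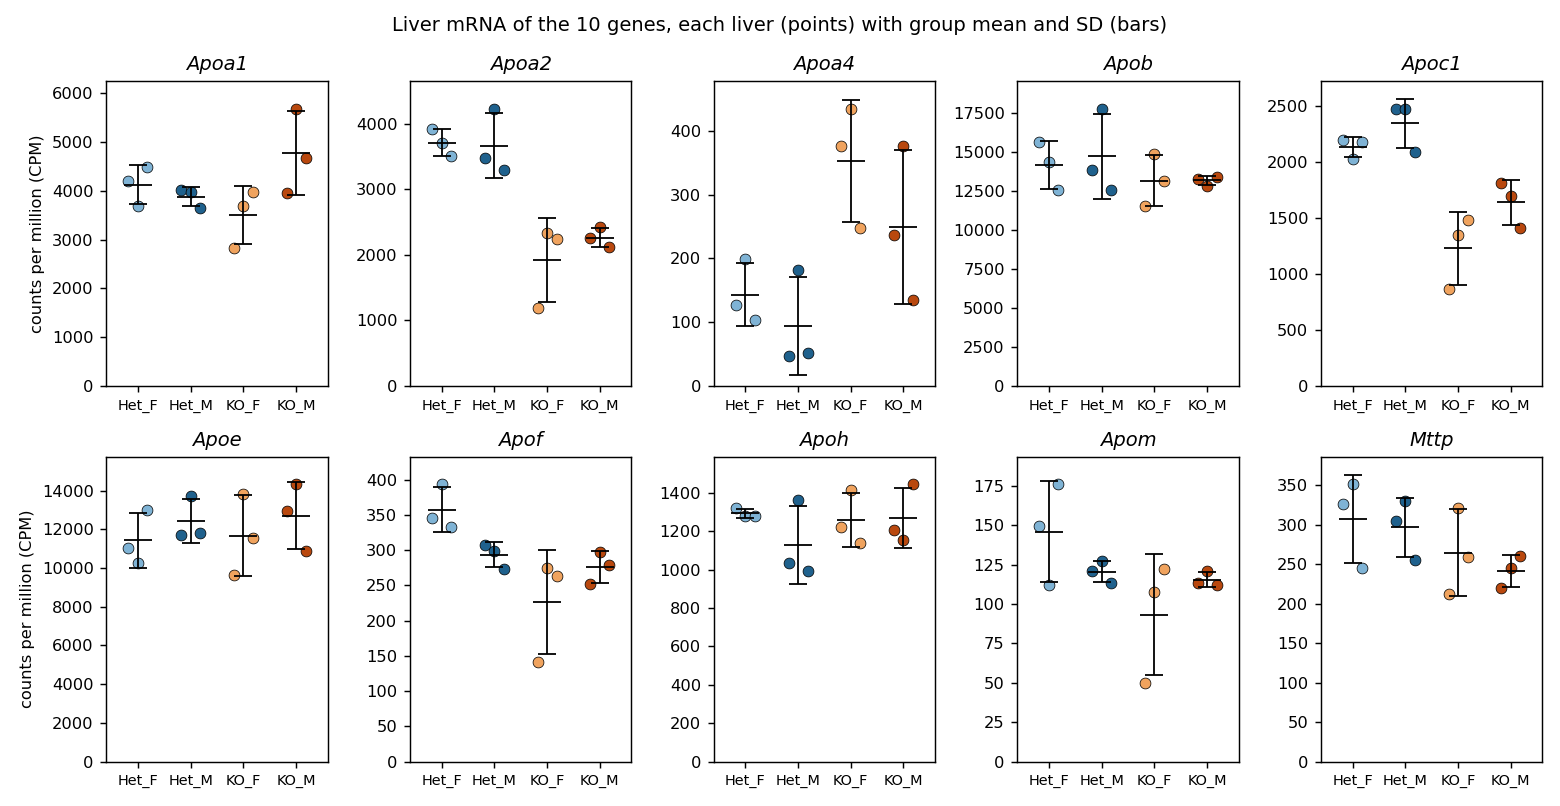
CPM (linear axes from 0) of each of the 10 genes in the 12 livers, by group, with points for livers and bars for the group mean ± SD (n = 3). All 6 KO points lie below all 6 Het points for Apoa2 and Apoc1, the KO points for Apoa4 reach higher with overlap, and the lowest KO_F point in Apoa2, Apoc1, Apof and Apom is KO_F_108.

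Apob and Mttp carry the assembly of VLDL. Apob stood at 15630, 14353 and 12591 CPM in Het_F, 13867, 17783 and 12546 CPM in Het_M, 11536, 14864 and 13131 CPM in KO_F and 13288, 12838 and 13423 CPM in KO_M. The groups overlapped, and the 3 KO males lay close together, inside the Het range. KO over Het gave a log2 fold change of -0.13 ± 0.133 (SE), with a 95% interval of -0.42 to 0.16 (adjusted p = 0.501, edgeR), so a fall to 0.746 of the Het level is still inside the interval. Mttp ranged from 245 to 351 CPM in Het and from 212 to 322 CPM in KO. Its log2 fold change was -0.26 ± 0.130 (SE), with an interval of -0.54 to 0.03 (adjusted p = 0.176, edgeR). The ratio of Mttp to Apob within a liver, in TPM, a unit of transcript abundance per transcript length, spanned 0.0674 to 0.0882 in Het livers and 0.0595 to 0.0798 in KO livers, with overlap.

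Apoa1 and Apoa2 are the main structural proteins of HDL. In KO livers Apoa2 mRNA was lower, while Apoa1 did not pass the test. Apoa2 stood at 3921, 3713 and 3507 CPM in Het_F and 3476, 4232 and 3303 CPM in Het_M. In KO it stood at 1191, 2342 and 2251 CPM in KO_F and 2256, 2423 and 2119 CPM in KO_M. Every KO liver was below every Het liver, a pattern that 4.98% of all tested genes showed. Apoa2 changed by -0.82 ± 0.162 on the log2 scale (SE; adjusted p = 0.00489, edgeR), that is 0.566 of the Het level with an interval of 0.443 to 0.723. Without KO_F_108, the lowest liver, it was -0.69 ± 0.104 (adjusted p = 0.00155, edgeR).

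Apoa1, by contrast, overlapped between the genotypes. It stood at 4213, 3692 and 4489 CPM in Het_F, 4011, 3986 and 3659 CPM in Het_M, 2833, 3681 and 3989 CPM in KO_F and 3965, 5686 and 4683 CPM in KO_M. The KO livers held both the lowest and the highest of the 12 values. The log2 fold change was 0.03 ± 0.131 (SE), with an interval of -0.26 to 0.32 (adjusted p = 0.896, edgeR). It was -0.24 ± 0.186 in females and 0.30 ± 0.186 in males, and leaving out the most extreme KO liver of each sex moved these to -0.11 ± 0.176 (without KO_F_108) and 0.16 (without KO_M_122). The difference between these, 0.54 ± 0.263 (adjusted p = 0.563, edgeR, genotype by sex), did not pass the test, and without KO_F_108 it was 0.40 ± 0.236.

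The ratio of Apoa2 to Apoa1 within each liver, in TPM, does not depend on how livers are scaled to each other. It was 2.29, 2.51 and 1.95 in Het_F, 2.14, 2.66 and 2.25 in Het_M, 1.05, 1.60 and 1.40 in KO_F and 1.42, 1.06 and 1.12 in KO_M. No KO liver reached the lowest Het liver, and the medians were 2.27 in Het and 1.26 in KO. The ratios set both genes' values side by side and add no independent test. They are shown with the ratios of 2 pairs of genes from shared clusters in the plot of ratios by group.

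**Figure D2:**
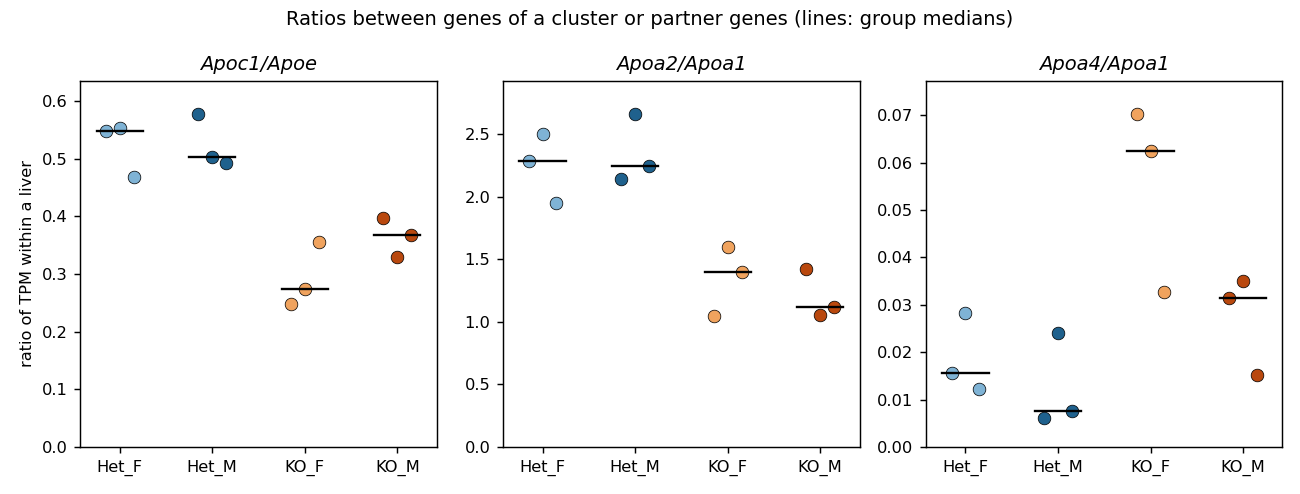
Ratio of TPM within each liver (linear axes from 0) for Apoc1 over Apoe, Apoa2 over Apoa1 and Apoa4 over Apoa1, by group, with points for livers and lines for the group medians (n = 3). The Het and KO ranges do not overlap for Apoc1 over Apoe (0.469 to 0.577 against 0.248 to 0.397) or Apoa2 over Apoa1 (1.95 to 2.66 against 1.05 to 1.60), and they overlap for Apoa4 over Apoa1.

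Apom and Apof are minor proteins of HDL. Apom carries sphingosine 1-phosphate, and Apof is known as an inhibitor of lipid transfer between particles. Apom ranged from 112.1 to 176 CPM in Het and stood at 50.1, 107.8 and 122.1 CPM in KO_F and 113, 121 and 112.1 CPM in KO_M. Apart from KO_F_108, each KO liver was inside the Het range or just under it. KO over Het gave -0.35 ± 0.187 on the log2 scale (SE, adjusted p = 0.197, edgeR) with KO_F_108 and -0.20 ± 0.112 (adjusted p = 0.234, edgeR) without it. In females the change was -0.64 ± 0.265 (unadjusted p = 0.0318 and adjusted p = 0.132, edgeR), and -0.34 ± 0.167 without KO_F_108. In males it was -0.06 ± 0.264. The genotype-by-sex difference of 0.58 ± 0.373 (adjusted p = 0.648, edgeR) was not called, and it was 0.28 ± 0.223 without KO_F_108.

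Apof stood at 346, 393 and 333 CPM in Het_F, 307, 299 and 273 CPM in Het_M, 141, 275 and 263 CPM in KO_F and 252, 297 and 279 CPM in KO_M. In females no KO liver reached a Het liver, a pattern that 15.3% of all tested genes showed, while the male groups overlapped. Over both sexes the change was -0.37 ± 0.148 on the log2 scale (SE; unadjusted p = 0.0275 and adjusted p = 0.0917, edgeR), and without KO_F_108 -0.25 ± 0.0857 (adjusted p = 0.0672, edgeR). In females alone it was -0.66 ± 0.210 (adjusted p = 0.0641, edgeR), a value that passed the threshold with DESeq2 (adjusted p = 0.0391). Without KO_F_108 the female value was -0.41 ± 0.129 (adjusted p = 0.101, edgeR), and a fit of the female livers alone gave an adjusted p of 0.194 (edgeR). In males it was -0.09 ± 0.210. The genotype-by-sex difference of 0.57 ± 0.297 (adjusted p = 0.576, edgeR) was not called, and it was 0.32 ± 0.171 without KO_F_108.

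Apoe, Apoc1 and Apoa4 are exchangeable apolipoproteins. Apoe is the ligand through which remnant particles are taken up by receptors of the LDL receptor family. It stood at 11009, 10241 and 13015 CPM in Het_F, 11731, 13717 and 11827 CPM in Het_M, 9649, 13817 and 11566 CPM in KO_F and 12952, 14317 and 10871 CPM in KO_M. The groups overlapped throughout, and the log2 fold change was 0.03 ± 0.137 (SE), with an interval of -0.27 to 0.33 (adjusted p = 0.891, edgeR).

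Apoc1, which slows the clearance of triglyceride-rich particles and acts on plasma lipid enzymes, lies beside Apoe. It stood at 2192, 2030 and 2174 CPM in Het_F, 2469, 2475 and 2092 CPM in Het_M, 862, 1349 and 1477 CPM in KO_F and 1810, 1693 and 1413 CPM in KO_M. No KO liver reached a Het liver, as for 4.98% of all tested genes. Apoc1 changed by -0.66 ± 0.140 on the log2 scale (SE; adjusted p = 0.00706, edgeR), that is 0.635 of the Het level with an interval of 0.514 to 0.784. Without KO_F_108 it was -0.55 ± 0.103 (adjusted p = 0.00487, edgeR). The ratio of Apoc1 to Apoe in TPM was 0.547, 0.554 and 0.469 in Het_F, 0.577, 0.503 and 0.492 in Het_M, 0.248, 0.274 and 0.355 in KO_F and 0.397, 0.329 and 0.367 in KO_M. The genes thus stood in a lower ratio in each KO liver.

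Macrophages also express Apoe and Apoc1, so their markers are given here. Of 11 Kupffer cell and macrophage markers, 6 were called higher in KO and 0 lower, and their summed level spanned 138 to 369 CPM in Het livers and 192 to 597 CPM in KO livers. Of 6 hepatocyte markers tested, 2 were called higher and 1 lower, and their sum spanned 53910 to 81040 CPM in Het livers and 75540 to 133300 CPM in KO livers. Most of that sum was Alb, at 35000 to 59820 CPM in Het and 54730 to 108200 CPM in KO. Alb itself was not called (0.56 ± 0.203, adjusted p = 0.0656, edgeR). All 6 hepatocyte markers were well above 0 in every liver. Of the markers of other liver cells, 2 of 8 for stellate cells and 2 of 6 for endothelium were called lower and 0 higher, and of those for bile duct cells (5) and lymphocytes (6) 0 were called by edgeR or DESeq2, with 0 at an unadjusted p under 0.05. Among neutrophil markers 1 of 2 tested was called higher (0 without KO_F_108), and among erythroid markers 1 of 5 was called lower. Named after their values were seen, the called hepatocyte markers were Ahsg and Fgb (higher) and Ttr (lower). The called macrophage markers were Gpnmb, Trem2, Marco, Vsig4, Cd68 and Cd5l. Called in the other lists above were Reln and Lrat for stellate cells, Kdr and Clec4g for endothelium, S100a8 for neutrophils and Alas2 for erythroid cells. Of 4 adipocyte markers, Lep had 0 counts in all livers, and Adipoq and Plin1 reached at most 0.0333 and 0.133 CPM in any liver. Cidec, the only adipocyte marker tested, ranged from 0.3905 to 6.52 CPM in Het and from 1.06 to 6.46 CPM in KO. It was not called (0.46 ± 0.552, adjusted p = 0.587, edgeR). Of 5 pancreatic acinar markers, 4 had 0 counts in all livers. The remaining acinar marker, Cela1, ranged from 4.97 to 17.7 CPM in Het and from 2.59 to 4.30 CPM in KO. It was called lower (-1.27 ± 0.2185, adjusted p = 0.00228, edgeR). The part of the cell make-up in the values of the members was not tested.

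Apoa4 was the member that rose. In mice it is made by the intestine and the liver, and its hepatic mRNA is known to respond to fasting and to lipid load. It stood at 126.1, 199 and 104 CPM in Het_F and 47.3, 182 and 52.2 CPM in Het_M. In KO it stood at 376, 435 and 247 CPM in KO_F and 237, 376 and 135 CPM in KO_M. In females every KO liver was above every Het liver, as for 15.1% of all tested genes, whereas KO_M_136 lay below Het_M_125 and Het_F_115.

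The log2 fold change of Apoa4 was 1.36 ± 0.385 (SE; adjusted p = 0.0301, edgeR), a 2.56-fold higher level with an interval of 1.42 to 4.63. This call was not stable. It was lost when any 1 of 8 of the 12 mice was left out, with adjusted p (edgeR) of 0.0533 to 0.0642. Among these was KO_F_108 (1.33 ± 0.433, adjusted p = 0.0631, edgeR). The call was also lost with no filter on low counts (1.37, adjusted p = 0.0778, edgeR). Without Het_M_125 it was 1.81 ± 0.286 (adjusted p = 0.00344, edgeR). Direction was the same in all of these.

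Apoa4 also varied most among mice of a group. Its pooled within-group SD was 0.727 on the log2 CPM scale, against 0.386 for Apom, 0.170 to 0.296 for the other 8 members, and a median of 0.235 over all tested genes. Of the enterocyte markers, sucrase-isomaltase (Sis) had 0 counts in all 12 livers and Lct at most 0.154 CPM in any. The summed enterocyte list spanned 28.8 to 46.0 CPM in Het livers and 6.56 to 24.7 CPM in KO livers. Nearly all of that sum was Fabp2, a fatty acid-binding protein named after its values were seen, which fell by 1.495 ± 0.214 on the log2 scale (SE; adjusted p = 0.000904, edgeR), with 28.4 to 45.7 CPM in Het and 6.28 to 24.1 CPM in KO. Vil1 was not called (0.09 ± 0.476, adjusted p = 0.916, edgeR), and the part of these genes in the values of Apoa4 was not tested. The genes Gm47528 and Gm10680, annotated on the opposite strand, overlap Apoa4 exons, and they held 1 to 10 and 2 to 40 counts against 1421 to 14084 for Apoa4. The ratio of Apoa4 to Apoa1 in TPM spanned 0.00619 to 0.0282 in Het livers and 0.0152 to 0.0702 in KO livers, with overlap.

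The 3 tested genes whose centred log2 CPM lay nearest to that of Apoa4 over the 12 livers were Cd36, a fatty acid translocase (root mean square difference 0.508), Cerkl, a ceramide kinase-like gene (0.536), and Plpp2, a lipid phosphate phosphatase (0.551). A flat line at the mean of Apoa4 gave 1.002. Cd36 ranged from 43.6 to 138 CPM in Het and from 87.2 to 213 CPM in KO, with a log2 fold change of 0.77 ± 0.190 (SE; adjusted p = 0.0142, edgeR). Plpp2 ranged from 8.58 to 15.97 CPM in Het and from 23.4 to 34.7 CPM in KO. Because nearness was measured over the same livers, these values are a description.

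Apoh encodes beta-2-glycoprotein I, which binds phospholipid and acts in coagulation more than in lipid transport. It ranged from 994 to 1360 CPM in Het and from 1138 to 1443 CPM in KO. Its log2 fold change was 0.06 ± 0.116 (SE), with an interval of -0.19 to 0.32 (adjusted p = 0.729, edgeR).

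Considered by sex, Apoa2 and Apoc1 were the 2 members called in females, both lower, where 5.61% of all tested genes were called lower. Their log2 fold changes in females were -0.95 ± 0.230 for Apoa2 (SE; adjusted p = 0.0255, edgeR) and -0.79 ± 0.199 for Apoc1 (adjusted p = 0.0282, edgeR). Without KO_F_108 they were -0.69 ± 0.156 (adjusted p = 0.0343, edgeR) and -0.59 ± 0.155 (adjusted p = 0.0561, edgeR). Leaving out Het_F_111, Het_F_115 or Het_F_126 left 0 members called in females, leaving out KO_F_112 left 1 (Apoa2), and a fit of the 6 female livers alone left 0.

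In males 0 members were called by edgeR, where 7.49% of all tested genes were called in either direction, though 3 had an unadjusted p under 0.05 and DESeq2 called 2 (Apoa2 and Apoa4). The male log2 fold changes were -0.70 ± 0.229 for Apoa2 (SE; adjusted p = 0.0892, edgeR), -0.52 ± 0.198 for Apoc1 (adjusted p = 0.137, edgeR) and 1.41 ± 0.546 for Apoa4 (adjusted p = 0.147, edgeR). Without KO_F_108, a female liver that enters the male comparison through the shared estimate of spread, edgeR called 2 (Apoa2 and Apoc1), and without Het_M_125 it called 1 (Apoa4).

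The test of genotype by sex called 0 members, where 0.0775% of all tested genes were called. By that test 0 members had an unadjusted p under 0.05, and DESeq2 called 0. The interval of the difference in log2 fold change, males minus females, was -0.45 to 0.95 for Apoa2 and -0.33 to 0.88 for Apoc1, so differences of that size between the sexes remain possible. For Apoa4 it was -1.57 to 1.79. The differences themselves were 0.25 for Apoa2, which became -0.0030 without KO_F_108, and 0.11 for Apoa4, which became -0.31 without KO_M_122 and 1.02 without Het_M_125. Between males and females, averaged over genotype, 0 members were called by edgeR and by DESeq2, where 1.05% of all tested genes were, and 0 had an unadjusted p under 0.05. The plot of log2 fold changes sets the comparisons side by side, which share the same livers.

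**Figure D3:**
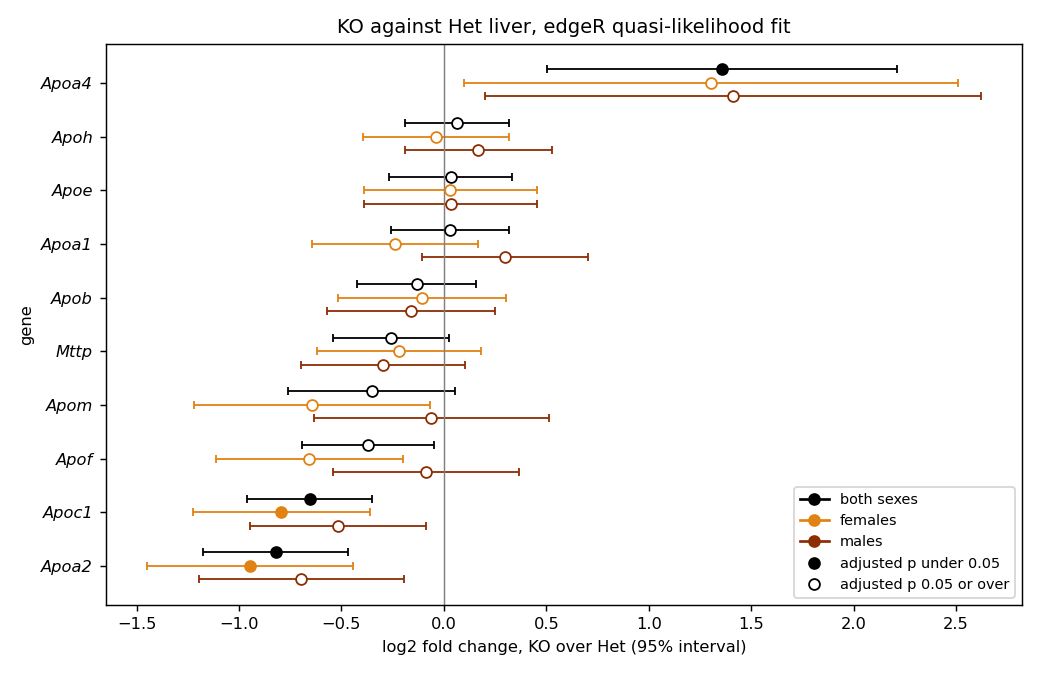
Log2 fold change of KO over Het (points) with 95% intervals (bars) from the edgeR fit for each gene, in both sexes together, in females and in males. Filled points, with an adjusted p under 0.05, are Apoa2, Apoc1 and Apoa4 for both sexes together and Apoa2 and Apoc1 in females, and no male point is filled.

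On the TPM scale, which allows levels to be compared between genes, the 10 mRNAs spanned a wide range. The Het medians were 10702 TPM for Apoe, 7712 for Apoa2, 5635 for Apoc1, 3104 for Apoa1, 892 for Apoh, 763 for Apob, 202 for Apof, 97.8 for Apom, 55.3 for Mttp and 52.7 for Apoa4. In Het the ranges of neighbours in this order overlapped for Apoh and Apob and for Mttp and Apoa4 alone. Apoe ranked 6 and Apoa2 ranked 9 among all genes by median TPM.

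In KO the order at the top was the same, but the spacing differed. The KO medians were 11111 TPM for Apoe, 4536 for Apoa2, 3718 for Apoc1 and 3307 for Apoa1. The ranges of Apoa2 and Apoc1, and of Apoc1 and Apoa1, now overlapped, and Apoc1 was above Apoa1 in 3 of 6 KO livers against 6 of 6 Het livers. Apoa4, at a KO median of 133 TPM, was above Apom in 5 of 6 KO livers.

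TPM values are held down in all libraries by the 7SL and 7SK RNA genes, which took 50.0% to 59.9% of TPM. Effective transcript length would move if long and short transcripts of a gene were exchanged. Divided by each member's mean and then by the median member of the same liver, it stayed within 0.983 to 1.014. A shift shared by the members would not show on this scale. The plot of TPM by gene shows both orders.

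**Figure D4:**
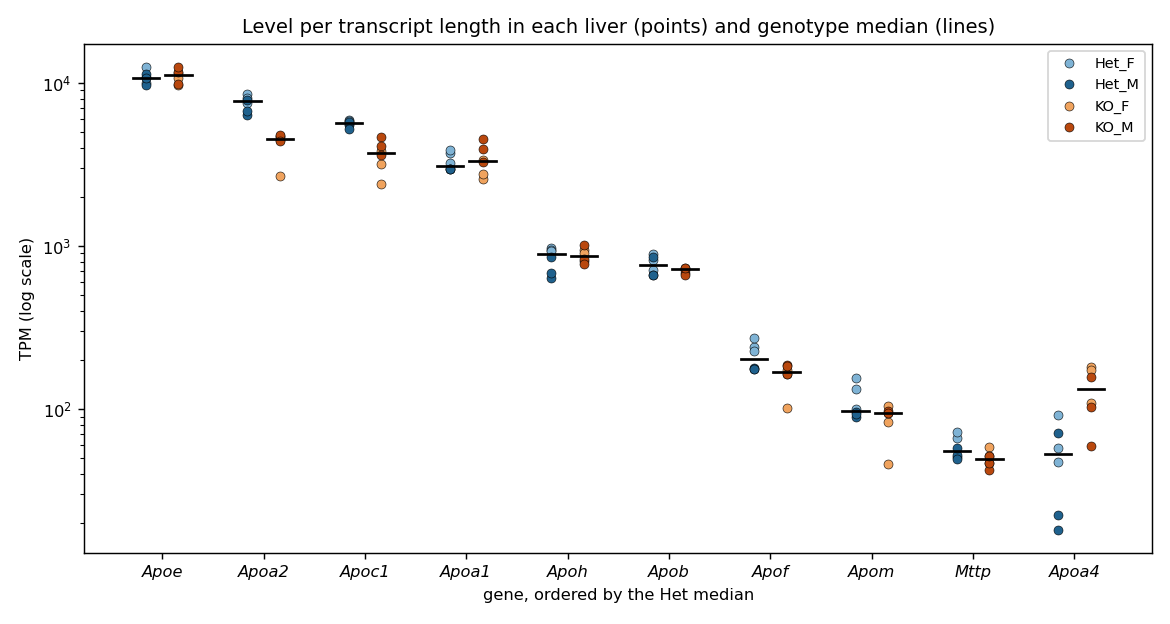
TPM of the 10 genes on a log axis, ordered by the Het median, with points for livers and short lines for the median of the 6 Het (left) and 6 KO (right) livers. Apoa2 and Apoc1 come down toward Apoa1 in KO, and the Apoa4 median goes from 52.7 to 133 TPM.

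The other genes of the pathway were taken from 7 lists of 105 genes, of which 104 were tested. In KO 11 were called higher and 31 lower, and the median log2 fold change was -0.12. Each list is to be read against the 11.9% of all tested genes called higher and the 10.7% called lower. The lists were compiled with earlier results of these data known, so an excess over these shares is no independent result. Of the other plasma apolipoproteins (10 of 11 tested), 0 were called by edgeR in either direction, 3 had an unadjusted p under 0.05, and DESeq2 called 1 higher (Apoc2) and 1 lower (Apol7a). Their median log2 fold change was -0.06, and 0.05 without KO_F_108. Apol7a, Apoc2 and Apoc4 are named here after their values were seen, and Apoc2 and Apoc4 lie in the Apoe and Apoc1 cluster. Apoc2, the cofactor of lipoprotein lipase, stood at 0.73 ± 0.259 (SE; adjusted p = 0.0641, edgeR), and Apoc4 at -0.25 ± 0.0999 (adjusted p = 0.0896, edgeR).

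Genes for loading lipid onto apolipoprotein B and for VLDL export gave 3 higher and 10 lower of 28, with a median log2 fold change of -0.19. By p-value the leading genes were 3 lipases or lipase-like enzymes of the endoplasmic reticulum. Aadac, arylacetamide deacetylase, fell by 1.24 ± 0.142 on the log2 scale, with 216 to 332 CPM in Het and 64.3 to 131 CPM in KO (adjusted p = 0.000239, edgeR). The carboxylesterase Ces3b fell by 1.32 ± 0.166 (adjusted p = 0.000413, edgeR), and Ces3a fell by 2.71 ± 0.421 (adjusted p = 0.00193, edgeR). Ces3a and Ces3b are close paralogs, and reads shared between them may have been split by the counting.

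Apob mRNA is edited in the liver of mice by a complex that makes the short form of the protein. Of its 5 genes, 0 were called higher and 2 lower, both of them RNA-binding cofactors of the editing enzyme. A1cf fell by 0.75 ± 0.141 on the log2 scale (SE; adjusted p = 0.00370, edgeR), with 169 to 282 CPM in Het and 76.7 to 136.3 CPM in KO. Rbm47 fell by 0.94 ± 0.200 (adjusted p = 0.00747, edgeR), with 85.6 to 141 CPM in Het and 29.5 to 75.7 CPM in KO. For both, no KO liver reached a Het liver, a pattern that 4.98% of all tested genes showed. Editing itself is not visible in gene counts.

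Genes for forming and remodelling HDL gave 2 higher and 5 lower of 13, with a median log2 fold change of -0.29. Lipc, hepatic lipase, fell by 1.68 ± 0.227 (SE; adjusted p = 0.000684, edgeR), with 125.1 to 183 CPM in Het and 19.6 to 64.8 CPM in KO. Lipg, endothelial lipase, fell by 2.62 ± 0.527 (adjusted p = 0.00747, edgeR). Gpld1, a phospholipase carried on HDL, rose by 0.68 ± 0.0999 (adjusted p = 0.000909, edgeR), with 266 to 316 CPM in Het and 416 to 536 CPM in KO.

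Acute-phase proteins that bind HDL or travel with it in inflammation gave 5 higher and 1 lower of 8, with a median log2 fold change of 0.84. Hpx, which binds heme, rose by 0.97 ± 0.120 (SE; adjusted p = 0.000367, edgeR), and Orm1, an acid glycoprotein, rose by 0.81 ± 0.116 (adjusted p = 0.000827, edgeR). Saa4, the constitutive serum amyloid A, fell by 1.20 ± 0.186 (adjusted p = 0.00134, edgeR). Lipoprotein receptors and their adaptors gave 0 higher and 2 lower of 10, which were Lrpap1, a receptor chaperone (-0.34 ± 0.0918, adjusted p = 0.0220, edgeR), and Stab1, a scavenger receptor (-0.45 ± 0.137, adjusted p = 0.0356, edgeR).

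Regulators of apolipoprotein genes gave 1 higher and 11 lower of 30, with a median log2 fold change of -0.34. The hepatocyte factor Cebpa fell by 1.11 ± 0.147 (SE; adjusted p = 0.000530, edgeR), the bile acid receptor Nr1h4 fell by 1.04 ± 0.157 (adjusted p = 0.00109, edgeR) and the oxysterol receptor Nr1h3 fell by 0.50 ± 0.0817 (adjusted p = 0.00174, edgeR). Ppara and Creb3l3 are named after their values were seen, as fasting-responsive factors of the liver of which Creb3l3 is known to activate Apoa4. Ppara fell by 1.38 ± 0.225 (adjusted p = 0.00193, edgeR), and Creb3l3 fell by 1.03 ± 0.198 (adjusted p = 0.00428, edgeR). Also called lower in the same list were Nr2f2, Srebf1, Foxa1, Rxra, Nr0b2 and Nr5a2, and the 1 called higher was Srebf2. Srebf2 rose by 0.48 ± 0.117 (adjusted p = 0.0127, edgeR). The remaining regulators were not called. Of these Ppargc1a, also named after its values were seen, was higher in KO without being called (1.62 ± 0.580, adjusted p = 0.0725, edgeR). Foxo1, named in the same way, was not called (0.018 ± 0.1725, adjusted p = 0.955, edgeR). No gene of the 7 lists was called for genotype by sex. Without KO_F_108 the lists gave 11 higher and 27 lower.

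**Figure D5:**
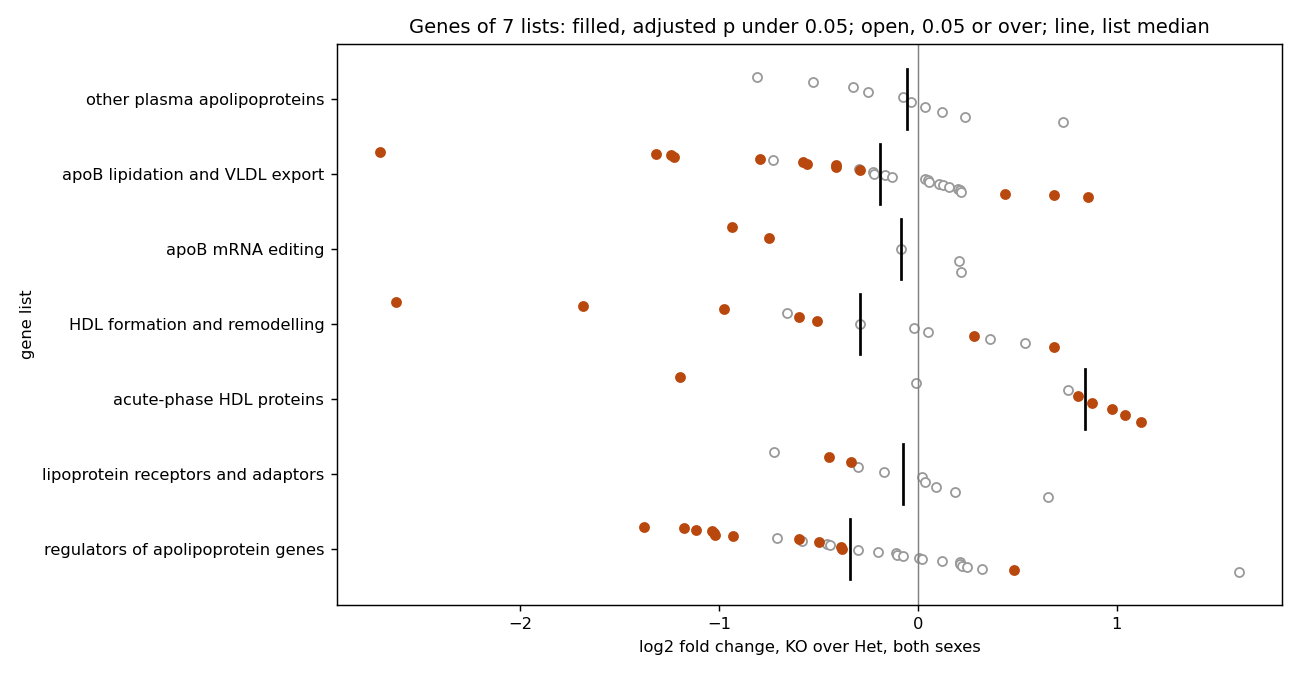
Log2 fold change of KO over Het for the tested genes of 7 lists, with filled points for an adjusted p under 0.05 (edgeR), open points for the others and a line at each list's median. Filled points lie mostly below 0 in the lists of VLDL export (10 of 13), HDL formation (5 of 7) and regulators (11 of 12), mostly above 0 among acute-phase HDL proteins (5 of 6), and are absent among the other plasma apolipoproteins.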

How the data were processed

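Per the methods and the labels, the authors extracted liver RNA with TRIzol, prepared stranded libraries after ribosomal RNA depletion, aligned reads with STAR (2.7.9a) to GRCm39 annotated by GENCODE M34, and quantified genes with Salmon (1.10.1). The deposited estimated counts (12.0% not whole) were rounded, and the deposited TPM values served for levels, ratios and alternatives. Genes with at least 5 reads, scaled to the median library, in at least 3 livers were tested with edgeR (4.0.16; quasi-likelihood, TMM, prior count 2, robust, R 4.3.3) in 1 fit of 4 group means over 12 livers, with Benjamini-Hochberg adjustment over 19355 genes and a threshold of 0.05; standard errors are the log2 fold change over the root of F. CPM uses TMM-scaled libraries. Alternatives used DESeq2 (1.42.0), limma (3.58.1) on log2(TPM + 1) or log2(TPM + 0.1), the deposited counts scaled from TPM, other filters, scalings and fits, and each mouse left out. limma after removing the 7SL and 7SK genes was added after seeing the data. Same-group livers differed beyond sampling noise in all 12 pairs (chi-square per degree of freedom 86.8 to 226), so no library was treated as a repeat deposit. All columns were mapped. The test script was run on simulated counts with the same spread setting for every gene and no outlying liver. These settings differ from the data, so that run could not test how the fit handles a liver such as KO_F_108.

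The members and lists were chosen with earlier results of these data known. Named genes are all members, Xpa and Ercc8, in each list the 3 called genes of smallest p, any list gene called for genotype by sex, and the 3 genes nearest to the member of largest change. The hepatocyte marker Tf was not matched by that symbol. Gene positions and promoter windows come from GENCODE M39 and its GRCm39 sequence, a later release of the annotation on the same build. Of the 10 GENCODE windows, 6 lie inside the span of their own gene, since other transcripts start further upstream, and 3 of these (Apoa2, Apoc1 and Mttp) hold an exon of it. RefSeq windows, the planned source, matched 8 of 10 members and are not printed. In these AGGTCA was found for Apoa2 and Apoh, TATAAA for Apoa2, Apob and Apoe and TGACGT for Mttp. A further planned motif is not reported here. Whether counting used the strand is not given in the sources used here. Tomm40l overlaps Apoa2 and Prkca overlaps Apoh on the opposite strand, with at most 286 and 635 counts.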

Additional observations from a re-analysis of the deposited data

Results flagged for a closer look

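Dixon's test was applied to the CPM of each member over the 6 livers of each genotype, 20 groups of values in all, and chance marks about 1 in 20 such groups. It marked 3 values, and all of them were KO_F_108 as the lowest KO liver, so they are not independent of each other. For Apoa2 the gap to the next liver took 0.753 of the whole range (1191 against 2119 CPM). For Apof it took 0.708 (141 against 252 CPM), and for Apom 0.801 (50.1 against 107.8 CPM). The critical value for 6 livers is 0.625. KO_F_108 held 31504723 counts, within the range of the other libraries. What sets this liver apart was not tested.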

How the results depend on the processing

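No paired analysis was possible because the mouse numbers in the labels are each used once and are shared by no groups. With both sexes together, 2 to 3 members were called under each of 28 alternatives, and 2 (Apoa2 and Apoc1) at a threshold of 0.01. Apoa2 (log2 fold change -0.89 to -0.69) and Apoc1 (-0.73 to -0.55) kept their genotype calls under each of 27 alternatives, with adjusted p of at most 0.0151 and 0.0212, while Apoa4 (1.16 to 1.81) lost its call in 9 of 27, with adjusted p of up to 0.0778. In females 2 members were called, 0 when the female livers were fitted alone, and 0 to 3 with a mouse left out. In males 0 were called, 2 by DESeq2, 1 when the male livers were fitted alone, and 0 to 2 with a mouse left out. For genotype by sex and for sex 0 were called under all 26 and 27 alternatives. The pathway lists gave 34 to 48 called genes against 42. Some uncalled values changed sign. With a mouse left out, Apoa1 ranged from -0.0303 to 0.0961 for both sexes together and Apoe from -0.0271 to 0.0932. Apoe in females (0.0319 with all livers) then ranged from -0.0959 to 0.153. Apoe in males (0.0331 with all livers) ranged from -0.0510 to 0.134, and Apoh in females (-0.0394 with all livers) from -0.121 to 0.0285. For genotype by sex Apoa2 (0.25) then ranged from -0.0030, without KO_F_108, to 0.41, and Apoa4 (0.11) from -0.31, without KO_M_122, to 1.02. On log2(TPM + 0.1), log2(TPM + 1) and log2(TPM + 1) without the 7SL and 7SK genes, Apoe in females was -0.0502, -0.0501 and -0.0676, Apof in males 0.0090, 0.0089 and 0.0097, and Apom in males 0.0381, 0.0377 and 0.0387. With scaling by library size alone, Apoe in females was -0.0513 and Apom in males 0.0139. Over 1340 values and alternatives, 79 changed sign, of which 0 had been called. By CPM, which is not per length, Apob ranked 1 and Apoe 2, with Apob 6 by TPM. Why single settings moved a call was not tested. The median of all genes moved to at most 0.0275. With 3 livers a group, intervals for the uncalled members still span changes of the sizes given above.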
